A study of Mus musculus with 5 samples.

Results

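Dcn and Col25a1 are 2 of the 32285 gene features counted in single-nucleus libraries of mouse hippocampus, and both were found by symbol in each of the 5 libraries. They were chosen by their values in these data, as genes with some of the lowest ratios of 5xFAD to wild type in excitatory nuclei. That ratio is therefore a description here and supports nothing. The points not used for the choice are which subtypes of neuron hold each gene, how the level and the share of nuclei contribute, and the chromatin at both genes. The 5 libraries are labelled wild type (WT), 5xFAD, and 5xFAD with an astrocyte-specific, a neuron-specific or a global knockout of MAGL. 5xFAD is a transgenic mouse line that carries mutant human transgenes of familial Alzheimer's disease, amyloid precursor protein among them, under a neuronal promoter, and MAGL, the product of Mgll, breaks down the lipid messenger 2-arachidonoylglycerol. All of the groups but WT carry the 5xFAD transgenes. The labels give neither the Cre driver, the age and sex, nor the number of mice behind a library, and all 5 carry the same batch name. Values given in fives follow the order WT, 5xFAD, astrocyte, neuron and global MAGL-KO.

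Each group is 1 library, so there was no replicate and no test. Brackets hold 95% intervals of counting error, which say nothing of differences between mice. The libraries held 5245, 5185, 6164, 4050 and 7498 nuclei, of which 3844, 3686, 4426, 2815 and 5559 were called excitatory from their markers, with 69339064 to 111744988 unique molecular identifiers (UMIs) per library. Between 29 and 63 barcodes were shared by a pair of libraries, at most 1.16% of the smaller one. Mgll was at 69.8, 73.3, 89.0, 91.9 and 78.4 UMIs per 1000000 UMIs (CPM) in excitatory nuclei and at 493, 346, 483, 403 and 430 CPM in astrocyte-like nuclei. It was thus not lower in any library labelled as a knockout than in the 5xFAD library, and these 3 libraries are named by their labels only. Counts of Mgll over the whole gene do not check for the loss of an exon.

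Decorin, the product of Dcn, is a small leucine-rich proteoglycan that cells secrete into the extracellular matrix, where it binds collagen fibrils, sequesters transforming growth factor beta and antagonises several receptor tyrosine kinases. It is best known from fibroblasts and from the meninges and vessel walls of the brain. Col25a1 encodes collagen XXV, also called CLAC-P, a collagen that spans the membrane of neurons. Furin can release its extracellular part, which is known to bind amyloid and was isolated from plaques. The protein also takes part in muscle innervation through receptor tyrosine phosphatases.

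Dcn (ENSMUSG00000019929) lies on chr10:97479609-97518143, + strand, and Col25a1 (ENSMUSG00000058897) on chr3:130131501-130599877, + strand, of GRCm38 in GENCODE vM21. The RefSeq promoter table (GRCm38.p6) matched 1 of these 2 genes. The 250 bases before the RefSeq start of Col25a1 are shown because the peak over them was listed in all 5 libraries, at levels that differed less than the RNA. They lie at chr3:130180595-130180844 on the + strand, and the capitals mark a 16-base word that occurs in 2 places.
Col25a1 promoter: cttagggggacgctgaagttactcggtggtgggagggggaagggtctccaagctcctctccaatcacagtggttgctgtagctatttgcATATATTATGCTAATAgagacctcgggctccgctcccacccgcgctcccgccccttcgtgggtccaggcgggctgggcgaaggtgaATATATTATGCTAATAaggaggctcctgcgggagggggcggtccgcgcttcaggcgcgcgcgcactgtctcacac
The word begins 161 and 75 bases before the start, and 1.98% of 32851 RefSeq promoters hold any 16-base word at 2 places. The window has 60.4% G and C, against a median of 52.4% over all promoters. On either strand it holds the GC box GGGCGG at 2 places (32.7% of promoters hold at least 1) and CCAAT once (33.8%). It holds no match to TATAAA (12.4%), TGACGTCA (1.55%) or CANNTG (66.2%). These letters describe the window and show no bound factor.

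Over all excitatory nuclei Dcn was counted in 1511, 655, 1866, 1749 and 2763 UMIs, or 16.4, 7.82, 22.8, 25.2 and 24.7 CPM. The 5xFAD library was the lowest and the 3 libraries labelled MAGL-KO were above WT. The log2 ratio of 5xFAD to WT was -1.07 [-1.21, -0.94], the 20th lowest of 15546 genes with at least 100 UMIs, where 1.51% of genes were at least 1.5-fold lower and 1.07% at least 1.5-fold higher. Col25a1 was counted in 22738, 13156, 10834, 10369 and 15200 UMIs, or 247, 157, 133, 150 and 136 CPM. WT was the highest and the other 4 lay close together. Its ratio of 5xFAD to WT was -0.66 [-0.69, -0.62], the 157th lowest. Both ranks lie inside the part of the distribution from which the genes were picked.

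The comparisons with the libraries labelled MAGL-KO separated the genes. The log2 ratios of Dcn to 5xFAD were 1.55 [1.42, 1.68], 1.69 and 1.66 for astrocyte, neuron and global MAGL-KO, and 17.7%, 16.4% and 3.73% of genes were at least 1.5-fold higher. The median gene stood at 0.22, 0.19 and 0.04 in these comparisons, and with size factors the Dcn ratio was 1.28 for astrocyte and 1.46 for neuron MAGL-KO. For Col25a1 the ratios were -0.25, -0.07 and -0.21, and -0.51, -0.30 and -0.27 with size factors. At least 1.5-fold lower were 1.07%, 1.46% and 1.26% of genes. These ratios share the 5xFAD library by which the genes were picked. Against WT, which each comparison also shares, Dcn stood at 0.47, 0.62 and 0.59 and Col25a1 at -0.90, -0.73 and -0.86. Over all excitatory nuclei Dcn was thus above its WT level in these 3 libraries, and Col25a1 below it. For Dcn this did not hold in every set of nuclei. With the shares of clusters held equal it was at 22.5 CPM in WT and at 21.5, 23.5 and 22.3 CPM in the MAGL-KO libraries. Over clusters with at least 20 nuclei in WT and in 5xFAD it was at 16.1 CPM and at 21.1, 22.6 and 20.8 CPM. In nuclei with Xist and no Y-linked UMIs WT was the highest library, at 19.3 CPM beside 13.9, 18.6 and 11.3 CPM.

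Excitatory nuclei were grouped into 32 clusters (e0 to e31) and inhibitory nuclei into clusters with the letter i, without use of Dcn or Col25a1. A cluster was called "like" a subtype from its markers. Galntl6, listed as a CA3 marker, is among the 10 leading genes of the CA1-like e0 and e12, and Hs3st4, listed for deep-layer cortex, among those of the CA3-like e23, so CA1-like and CA3-like nuclei are compared by cluster. Wfs1, listed for CA1, is among those of the subiculum-like e14, and Cux2, listed for upper-layer cortex, among those of e6. The subiculum-like name is thus limited too. In the mean of the 5 libraries Dcn was highest in e12, a CA1-like cluster led by Galntl6 and Pde11a, at 99.2 ± 36.9 CPM (SD over the libraries), and in the subiculum-like cluster e14 at 92.4 ± 28.6 CPM. The unnamed cluster e18, led by Reln, stood at 92.7 ± 22.1 CPM over the 3 libraries with at least 20 nuclei of it. The next were the CA1-like e22, led by Adam12, at 48.0 ± 29.0 CPM and the mixed cluster e11 at 30.5 ± 12.2 CPM. The first 3 of these did not differ beyond their spread over the libraries. Clusters e12, e14, e18 and e22 held 16.9%, 11.3%, 11.7% and 4.01% of all Dcn UMIs in used nuclei. Dentate granule-like nuclei, the most numerous subtype, were at 3.16, 2.02, 3.37, 3.12 and 4.66 CPM.

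**Figure D1:**
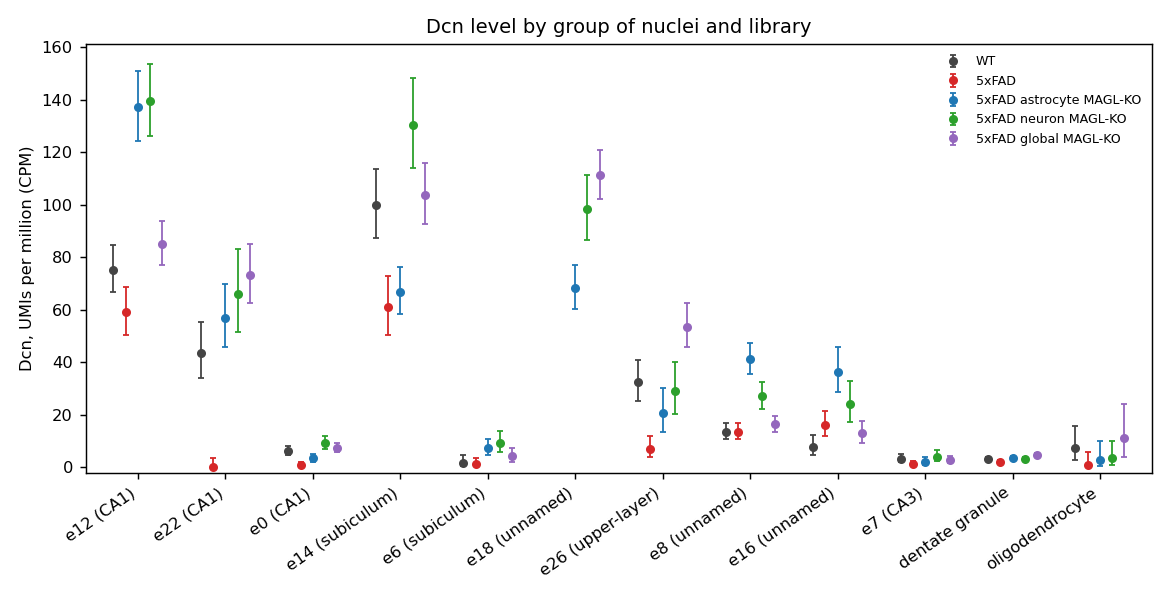
Level of Dcn in CPM ( linear axis) by cluster or class for the 5 libraries, 1 point per library with its 95% counting interval; points on fewer than 20 nuclei are left out. Cluster e12 stands at 75.3 CPM in WT and 59.1 CPM in 5xFAD, e22 at 43.7 and 0 CPM, and dentate granule-like nuclei stay under 5 CPM in all libraries.

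In cluster e12, with 141, 112, 140, 103 and 211 nuclei, Dcn was at 75.3, 59.1, 137, 140 and 85.1 CPM. The 5xFAD library was again the lowest, with a log2 ratio to WT of -0.35 [-0.63, -0.07], a smaller difference than over all excitatory nuclei. Among nuclei with Y-linked UMIs only it was -0.31 [-0.76, 0.14], an interval that spans 0. Dcn had at least 1 UMI in 58.2%, 46.4%, 54.3%, 73.8% and 55.9% of these nuclei. In e22, which has 55, 33, 71, 39 and 95 nuclei, it was at 43.7, 0, 57.0, 66.0 and 73.2 CPM. The 0 in 5xFAD is 0 UMIs in 33 nuclei beside 70 UMIs in the 55 WT nuclei, so the level was at least 15.1-fold lower against a floor of 3 counts in that library, a bound that leaves out the counting error of the WT UMIs. With it the upper end of the interval of the log2 ratio was -3.58. In the large CA1-like cluster e0 the level was low and did not exceed the range of oligodendrocyte-like nuclei, at 6.23, 0.996, 3.41, 9.18 and 7.36 CPM. Its ratio of 5xFAD to WT was -2.64 [-3.85, -1.61], on 9 and 53 UMIs.

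The subiculum-like cluster e14, with 94, 85, 147, 69 and 128 nuclei, had 99.8, 61.0, 66.9, 130 and 104 CPM of Dcn. Its 5xFAD level was the lowest, with a log2 ratio to WT of -0.71 [-1.04, -0.39], and the level of the astrocyte MAGL-KO library lay within counting error of it (0.13 [-0.19, 0.47]). Among nuclei of e14 with Y-linked UMIs only, Dcn was at 105, 62.2, 32.6, 76.7 and 149 CPM, so 5xFAD was not the lowest there. The other subiculum-like cluster of size, e6, was between 1.31 and 9.12 CPM, so the gene marks 1 of these clusters rather than all that share the name. Cluster e18 held only 12 and 3 nuclei in WT and 5xFAD but 137, 75 and 180 in the libraries labelled MAGL-KO. Its Dcn was at 282 and 236 CPM in the 12 and 3 nuclei and at 68.3, 98.4 and 111 CPM in the others. In the latter it gave 13.7%, 14.8% and 20.1% of excitatory Dcn UMIs, beside 5.29% and 2.14% in WT and 5xFAD. The upper-layer-like cluster e26 was at 32.5, 7.15, 20.5, 28.9 and 53.6 CPM. Not all clusters were lower, since e8 was level in WT and 5xFAD (13.5 and 13.6 CPM) and e16 was higher in 5xFAD (7.89 and 16.01 CPM, ratio 1.02 [0.21, 1.89]).

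Of the 17 excitatory clusters with at least 20 nuclei in both libraries and at least 10 Dcn UMIs in either, 14 were lower in 5xFAD than in WT and 3 were higher. The ratio was past 1.5-fold in 12 of the lower clusters and 1 of the higher. In 7 of the 17, all lower in 5xFAD, the mean level was not above the highest level of oligodendrocyte-like nuclei (11.0 CPM), which had 7.20 CPM in WT and 1.04 CPM in 5xFAD on 6 UMIs and 1 UMI. Of the 10 clusters above it, a split chosen after seeing the data, 7 were lower (6 past 1.5-fold) and 3 higher (1 past 1.5-fold). The 10 include e10 and e11, in which 77.1% and 80.4% of nuclei held genes of both sexes. Of excitatory Dcn UMIs e10 gave 14.9% in WT and 3.51% in 5xFAD, and e11 gave 12.7% and 12.2%. The Dcn ratio over all excitatory nuclei and these counts thus rest in part on both clusters. Over named clusters alone, which leaves out both, the log2 ratio of 5xFAD to WT was -1.09. Against 5xFAD, Dcn was higher in 17 of 19 clusters of the astrocyte, 15 of 16 of the neuron and 20 of 22 of the global MAGL-KO library. Over all excitatory nuclei the median gene stood at 0.22, 0.19 and 0.04 in these comparisons. All of these counts use the 5xFAD library by which Dcn was picked, and a cluster could enter through the library with more Dcn alone. Clusters of 1 library are not replicates, so the counts are a description. Inhibitory nuclei, which the choice of the genes did not use, had 7.63, 4.91, 11.1, 16.1 and 10.5 CPM. Their ratio of 5xFAD to WT was -0.64 [-0.99, -0.29], where 1.29% of genes were at least 1.5-fold lower. Over 13 alternatives it ran from -1.62, after thinning to 3000 UMIs, to -0.35. Among inhibitory nuclei with Y-linked UMIs only it was -0.97 [-2.13, 0.19], an interval that spans 0. Most of these UMIs (11.3 of 11.9% of all Dcn UMIs) lay in unnamed inhibitory clusters, while the Lhx6 and Adarb2 lineages were at 1.27 to 5.48 CPM. The 7 unnamed inhibitory clusters with genes of both sexes in at least 75% of nuclei made up 31.3% to 42.9% of inhibitory nuclei. They are i1, i2, i4, i8, i10, i12 and i15, with 4.41%, 1.80%, 1.16%, 1.79%, 0.60%, 0.12% and 0.93% of all Dcn UMIs. The inhibitory Dcn value thus rests for the most part on them. Whether they hold RNA of excitatory nuclei was not tested, so the value is not taken as independent of the choice.

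The level of Dcn in e12 and e14 stood above that in oligodendrocyte-like nuclei, which should lack it and had 7.20, 1.04, 2.73, 3.46 and 11.0 CPM. The levels in the CA1-like e0 and the subiculum-like e6 did not exceed that range, so they could not be told from it. That range rests on shallow nuclei with few Dcn UMIs. The chromatin at Dcn, given below, was more open in e0 than in oligodendrocyte-like nuclei. Whether e0 holds Dcn at a low level was thus not settled. In oligodendrocyte-like nuclei 0.331% to 2.34% had a Dcn UMI, at a median depth of 2152 to 2988 UMIs, beside 6.16% to 16.02% of excitatory nuclei at a median of 14324 to 18367 UMIs. With each nucleus thinned to 3000 UMIs, Dcn was seen in 3.07%, 1.43%, 3.77%, 4.35% and 4.62% of excitatory nuclei and 0% to 2.27% of oligodendrocyte-like nuclei, so the 5xFAD share lay within the latter range. In e12 they were 19.1%, 14.3%, 25.9%, 30.1% and 23.2%. Mural-like nuclei, 8 to 11 in a library, had 161 to 561 CPM on 6 to 20 UMIs. As a check of cell type, not compared between libraries, markers were summed in the 23 to 87 CA1-like nuclei of a library with at least 3 Dcn UMIs. In them the 8 fibroblast markers summed to 1.51 to 15.8 CPM, with Col3a1 and Slc6a13 at 0 in all 5 libraries, and the 6 mural markers to 5.32 to 8.59 CPM. In the mural-like nuclei the same lists summed to at least 364 and 1719 CPM.

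Whether the lower level in 5xFAD is a matter of shares of subtypes or of the level within them was asked by weighting each subtype equally in both libraries. With the subtype shares held at the mean of the 5 libraries the log2 ratio of Dcn was -1.09, beside -1.07 as measured. WT levels combined with the 5xFAD shares of subtypes gave 0.05. In this split all unnamed clusters form 1 group, and among named clusters alone the shares gave 0.11. With the shares of the 32 clusters held equal the ratio was -0.62, or 58.1% of the value as measured, and the change of cluster shares alone gave -0.23. That value leans on clusters of few nuclei, such as e18 with 3 nuclei in 5xFAD. Over clusters with at least 20 nuclei in both libraries it was -0.88, or 82.2% of the value measured over all clusters. The value measured over these clusters alone is not given. For Col25a1 the ratios were -0.61 with subtype shares, -0.46 with cluster shares and -0.61 over clusters with at least 20 nuclei, beside -0.66 as measured. The share of subtypes alone gave -0.06 and that of clusters -0.10. For both genes the ratio with subtype shares held equal was thus close to the measured one. The part within clusters depended for both genes on which clusters entered. For Col25a1 it was 69.5% of the value measured over all clusters with cluster shares held equal. Over clusters with at least 20 nuclei it was 93.2% of that value.

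The libraries hold nuclei of both sexes in different proportions, which the labels do not mention. Excitatory nuclei with Xist and no Y-linked UMIs, as in females, made up 13.2%, 6.32%, 13.8%, 10.4% and 8.72%. Those with Y-linked UMIs and no Xist, as in males, made up 36.3%, 52.6%, 37.7%, 17.4% and 38.2%, and 40.3% to 71.7% held both. Among nuclei with Xist only, Dcn was at 19.3, 2.85, 13.9, 18.6 and 11.3 CPM, and the log2 ratio of 5xFAD to WT was -2.76 [-4.00, -1.74] on 8 and 133 UMIs. Among nuclei with Y-linked UMIs only, the levels were 10.4, 7.14, 21.9, 22.6 and 20.1 CPM and the ratio was -0.55 [-0.79, -0.31]. Col25a1 in Xist-only nuclei was at 324, 138, 145, 124 and 118 CPM with a ratio of -1.23 [-1.39, -1.07]. In nuclei with Y-linked UMIs only it was at 250, 187, 138, 148 and 152 CPM with a ratio of -0.42 [-0.47, -0.38]. Both genes were lower in 5xFAD in either set of nuclei, and the size differed. Nuclei that held both Xist and Y-linked UMIs are left out of these sets, and their share differed between the libraries. Whether each set holds nuclei of a single sex was not tested. The Xist-only nuclei of 5xFAD included 2 of e12, 3 of e14, 0 of e18 and 0 of e22, beside 12, 17, 2 and 3 in WT. The Dcn ratio among them thus also moves with the clusters present. Cluster shares were not held equal within either set. With 1 library of each genotype, sex and mouse cannot be told apart.

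**Figure D2:**
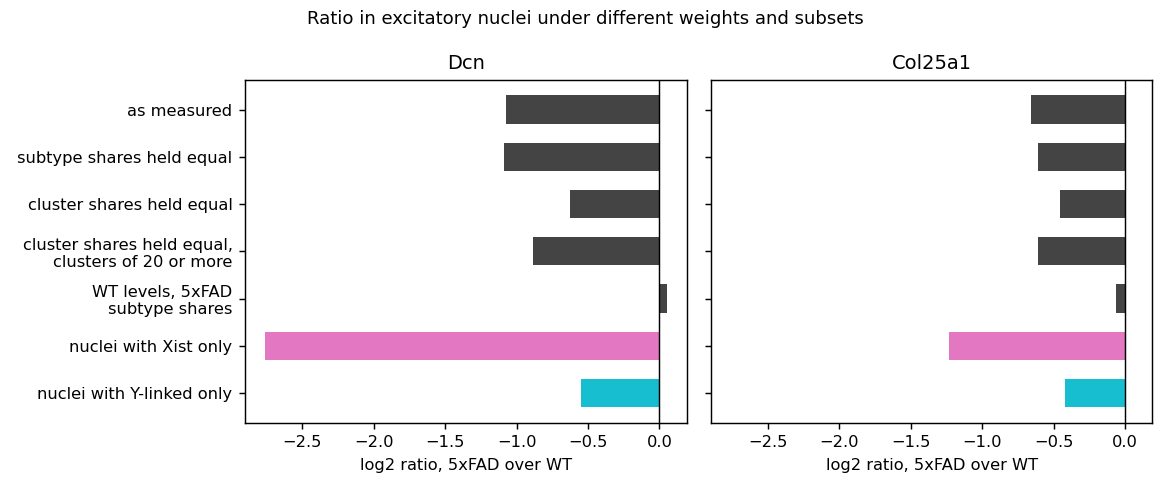
Log2 ratio of 5xFAD over WT in excitatory nuclei (x axis) for Dcn and Col25a1. Bars show it as measured, with subtype or cluster shares held equal, and with WT levels at 5xFAD subtype shares. The last bars show nuclei with Xist only and with Y-linked UMIs only. With subtype shares held equal the Dcn bar (-1.09) is near the measured one (-1.07), with cluster shares it is shorter (-0.62), the bar for subtype shares alone is near 0, and the bars of Xist-only nuclei are the longest.

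Genes that mark position along the long axis of the hippocampus were read in the same nuclei. Among the nuclei of e0, e12 and e22, the clusters e12 and e22, higher in mean Dcn, made up 32.3% [28.6, 36.2] in WT and 25.5% [21.95, 29.3] in 5xFAD. In the libraries labelled MAGL-KO they made up 33.9%, 34.98% and 34.3%. The direction between WT and 5xFAD turned with the nuclei used. It was 23.6% [18.5, 29.2] and 28.1% [23.3, 33.3] among nuclei with Y-linked UMIs only, and 15 of 60 and 2 of 25 nuclei among those with Xist only. Within e0, Grp, a gene of ventral CA1, was at 8.46, 2.88, 8.90, 9.54 and 4.70 CPM, with a ratio of 5xFAD to WT of -1.55 [-2.26, -0.89]. Nnat there was at 73.6, 34.5, 31.2, 69.1 and 48.4 CPM (ratio -1.09), and the ventral gene Nr2f2 had a ratio of -0.75 [-1.72, 0.18]. The other ventral genes in e0 differed less or went the other way. Etv1 stood at -0.18, Htr2c at -0.24 and Gpc3 at 0.65 on 5 and 3 UMIs. Among e0 nuclei with Y-linked UMIs only, Htr2c was at 0.28. Over e0, e12 and e22 together all 6 ventral genes were lower in 5xFAD than in WT, with a median log2 ratio of -0.64. The median gene stood at -0.02 there. In astrocyte, neuron and global MAGL-KO over 5xFAD the median of the 6 was 0.91, 1.24 and 0.56. The median gene stood at 0.17, 0.15 and 0.05. These pooled values also move with the shares of the clusters. Over all excitatory nuclei the 6 ventral genes had a median log2 ratio of 5xFAD to WT of -0.37, and 1 was at least 1.5-fold lower, where 1.51% of all genes were. Over all excitatory nuclei of astrocyte, neuron and global MAGL-KO, the median of the 6 over 5xFAD was 0.24, 0.61 and 0.40, where the median gene stood at 0.22, 0.19 and 0.04. Between 5xFAD and WT, Htr2c (-0.02 [-0.06, 0.02]) and Gpc3 (-0.04 [-0.14, 0.06]) did not differ beyond counting error. Among nuclei with Y-linked UMIs only, Htr2c and Nr2f2 (0.01 each) and Gpc3 (0.10) were not lower. Within e12, the cluster with the highest mean level of Dcn, the ventral genes did not share a direction. Htr2c stood at 0.51, Nr2f2 at 0.08, Nnat at -0.19, Etv1 at -0.25, Grp at -0.44 and Gpc3 at -1.19 on 7 and 20 UMIs. In e22 the 6 ventral genes were lower in 5xFAD, from -1.13 for Gpc3 (147 and 67.4 CPM) to -0.07 for Nnat. Among the e22 nuclei with Y-linked UMIs only, Gpc3 was the other way, at 16.5 and 82.1 CPM on 6 and 59 UMIs. Of the dorsal genes in e0, Wfs1 stood at -0.24, Ndst4 at -0.29 and Zbtb20 at 0.15. In e12 Wfs1 was at -1.59 [-2.84, -0.50] on 9 and 34 UMIs, Ndst4 at 0.06 and Zbtb20 at -0.03. The part of tissue position in the Dcn difference was not tested.

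**Figure D3:**
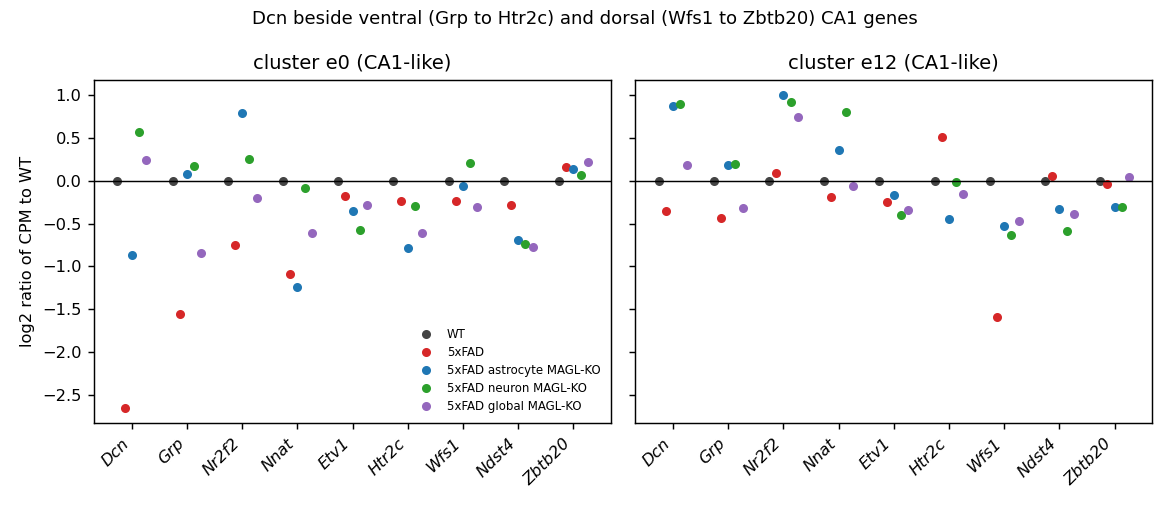
Log2 ratio of CPM to the WT library (y axis) for Dcn, ventral CA1 genes (Grp to Htr2c) and dorsal CA1 genes (Wfs1 to Zbtb20) in clusters e0 and e12, 1 point per library. In 5xFAD Grp is at -1.55, Nnat at -1.09, Htr2c at -0.24 and Etv1 at -0.18 in e0. The Dcn level of e0 does not exceed the range of oligodendrocyte-like nuclei. In e12 Dcn is at -0.35 and Htr2c at 0.51.

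Chromatin accessibility was read in the same nuclei as transposase cut sites in the listed peaks, per 1000000 cut sites in peaks. Around Dcn the peaks of the 5 libraries merged into 4 regions. The region over the start (chr10:97479096-97480016) and a region in an intron (chr10:97492260-97493224) were listed in all 5 libraries. The third, in an intron, was listed in WT and global MAGL-KO and the fourth, over an exon, in these and neuron MAGL-KO. In excitatory nuclei the regions listed in all libraries held 6.84, 6.06, 7.71, 8.98 and 7.92 cut sites in that unit. The log2 ratio of 5xFAD to WT was -0.17 [-0.38, 0.03], so a difference was not detectable at this depth. With all regions listed in a library it was -0.55, where WT listed 4 regions over 3101 bases and 5xFAD 2 regions over 1820 bases. Clusters e12 and e14 were more open there than e0, and e14 more so than e12. The shared regions had 41.5, 37.7, 28.5, 45.3 and 34.2 in e14 and 17.8, 15.7, 14.9, 15.7 and 13.9 in e12. They had 4.82, 3.77, 4.20, 7.36 and 5.74 in e0 and 0 to 0.451 in oligodendrocyte-like nuclei. Most of e14's cut sites were in the intron region (28.6, 20.8, 19.4, 24.9 and 26.6) and most of e12's at the start (11.4, 12.4, 11.0, 11.1 and 11.5). Each value at the start in e12 rests on 23 to 38 cut sites. Over the shared regions the ratio of 5xFAD to WT in e12 was -0.19 [-0.90, 0.50], so a difference of the size of the RNA's (-0.35) was not detectable.

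Col25a1 was spread over more subtypes. Dentate granule-like nuclei were at 555, 376, 267, 257 and 261 CPM and gave 55.7%, 56.6%, 49.0%, 43.7% and 41.7% of the Col25a1 UMIs of excitatory nuclei. WT was the highest, 5xFAD intermediate and the 3 libraries labelled MAGL-KO the lowest. The log2 ratio of 5xFAD to WT was -0.56 [-0.60, -0.52], with 1.22% of genes at least 1.5-fold lower. The ratios of the MAGL-KO libraries to 5xFAD were -0.50, -0.55 and -0.53, with 0.755%, 0.911% and 1.1% of genes at least 1.5-fold lower, and their ratios to WT were -1.06, -1.11 and -1.09. The libraries hold the granule-like clusters in different proportions, and e4 in particular.

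Both the share of granule-like nuclei with the gene and its level per nucleus were lower in 5xFAD. At least 1 Col25a1 UMI was seen in 93.7%, 86.7%, 70.0%, 71.1% and 70.7% of them, beside 0.328% to 2.27% of oligodendrocyte-like nuclei. Thinned to 3000 UMIs the shares were 71.4%, 58.4%, 43.8%, 43.1% and 44.3%, in the same order. The median nucleus had 486, 291, 175, 169 and 179 CPM, and the nucleus at the 90th percentile 1070, 810, 619, 615 and 607 CPM. The upper end of the distribution was lower too.

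Each of the 5 granule-like clusters with at least 20 nuclei in WT and 5xFAD was lower in 5xFAD. Cluster e9, the highest, was at 768, 588, 506, 562 and 515 CPM, and e3 at 598, 396, 376, 351 and 347. Cluster e1 was at 521, 291, 271, 250 and 237 CPM, e2 at 502, 358, 258, 265 and 279, and e5 at 445, 337, 256, 258 and 179. The ratios of 5xFAD to WT ran from -0.84 in e1 to -0.39 in e9. Among nuclei with Y-linked UMIs only, the ratio was 0.04 [-0.11, 0.19] in e9 and -0.07 [-0.22, 0.08] in e5, so no difference was detectable there. Over all granule-like nuclei it was -0.30 [-0.36, -0.24] in Y-linked-only and -1.14 [-1.33, -0.96] in Xist-only nuclei. Cluster e4, in which Penk is among the leading genes, had 17 and 11 nuclei in WT and 5xFAD and 321, 273 and 557 in the libraries labelled MAGL-KO. There its Col25a1 was low, at 86.2, 69.1 and 141 CPM. Penk encodes the opioid precursor proenkephalin. Without e4, left out after seeing the data, the log2 ratios of granule-like nuclei to 5xFAD were -0.30, -0.23 and -0.31, so their size rests in part on that cluster.

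**Figure D4:**
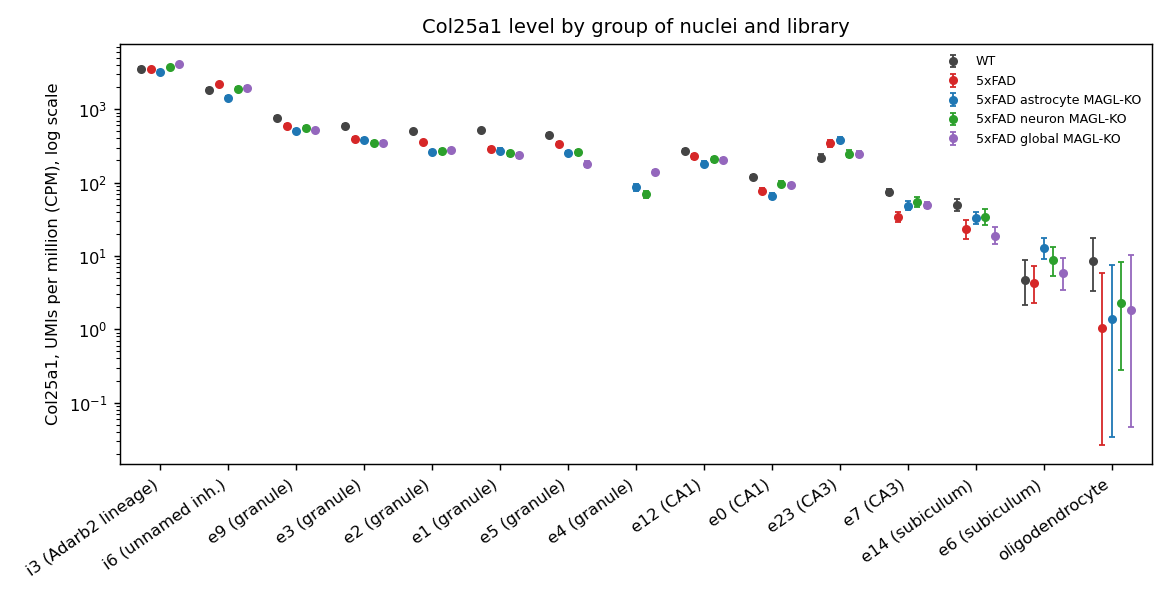
Level of Col25a1 in CPM ( log axis) by cluster or class for the 5 libraries, 1 point per library with its 95% counting interval; points on fewer than 20 nuclei are left out. WT is the highest point in the 5 granule clusters e9 to e5, while in the inhibitory cluster i3 all 5 libraries lie between 3263 and 4130 CPM.

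In the CA1-like clusters Col25a1 was again highest in WT. Cluster e0 had 119, 77.5, 64.8, 96.8 and 91.8 CPM and e12 had 270, 227, 182, 207 and 202 CPM. Among nuclei with Y-linked UMIs only, e0 was at 92.2 and 89.4 CPM in WT and 5xFAD (ratio -0.04 [-0.25, 0.16]), so no difference was detectable there. Cluster e12 therefore held more of both genes than e0. The CA3-like clusters went in opposite directions. Cluster e7, led by Trps1, was at 73.5, 34.0, 48.3, 54.6 and 49.5 CPM (ratio of 5xFAD to WT -1.11 [-1.37, -0.86]), and e23, led by St18, at 220, 342, 379, 248.9 and 248 CPM (ratio 0.64 [0.41, 0.87]). The subiculum-like cluster e14 was at 49.7, 23.4, 32.9, 34.0 and 18.9 CPM, and e6 was between 4.27 and 12.8 CPM. Of 25 excitatory clusters with at least 20 nuclei in both libraries and at least 10 Col25a1 UMIs in either, 24 were lower in 5xFAD and e23 was higher. The ratio was past 1.5-fold in 14 of the 24.

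Inhibitory nuclei had a higher level of Col25a1 than excitatory ones, and it was not lower in 5xFAD over all of them. They were at 716, 824, 682, 710 and 624 CPM and gave 53.4% of all Col25a1 UMIs in used nuclei, beside 45.8% from excitatory nuclei. Of all Col25a1 UMIs, the unnamed clusters i1, i2, i4, i8, i10, i12 and i15 gave 4.54%, 2.80%, 10.2%, 4.17%, 3.23%, 1.45% and 2.43%. These are the clusters with genes of both sexes in most nuclei. Values over all inhibitory nuclei thus rest in part on them, and whether they hold RNA of excitatory nuclei was not tested. The named Adarb2 and Lhx6 lineages had mean levels of 2343 and 469 CPM over the libraries. Over all inhibitory nuclei the log2 ratio of 5xFAD to WT was 0.20 [0.17, 0.23], and 1.46% of genes were at least 1.5-fold higher. Among inhibitory nuclei of at most 30000 UMIs it was -0.05, so this direction rests on the deep nuclei. The highest cluster was i3 of the Adarb2 lineage, which is led by Adarb2, Cnr1 and Npas3. Its 37, 50, 41, 33 and 51 nuclei had 3585, 3576, 3263, 3725 and 4130 CPM. The ratio of 5xFAD to WT there was -0.00 [-0.07, 0.06], beside -0.56 in granule-like nuclei. The unnamed cluster i6, led by Hapln1, had 1840, 2172, 1437, 1899 and 1962 CPM. Of 12 inhibitory clusters 5 were lower in 5xFAD, 3 of them past 1.5-fold, and 7 were higher, none of them past 1.5-fold. Clusters i1, i2, i4, i8 and i15 were among the 12. Whether the ratio differs between excitatory and inhibitory nuclei could not be tested with 1 library per group.

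The chromatin of Col25a1 differed less than its RNA. Its peaks merged into 57 regions over the gene and 10 kb on either side, of which 33 were listed in all 5 libraries. In granule-like nuclei these 33 held 240, 226, 216, 202 and 217 cut sites per 1000000. The log2 ratio of 5xFAD to WT was -0.09 [-0.15, -0.03], beside -0.56 for the RNA, and -0.15 with all listed regions. The region that covers the promoter shown above (chr3:130180217-130181099) had 24.9, 26.8, 22.9, 20.0 and 22.1 in granule-like nuclei and 19.4, 19.3, 18.9, 17.4 and 18.4 in all excitatory nuclei. WT and 5xFAD were level there. Within cluster i3 it had 36.5, 56.2, 32.5, 60.1 and 36.2 on 13 to 33 cut sites.

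**Figure D5:**
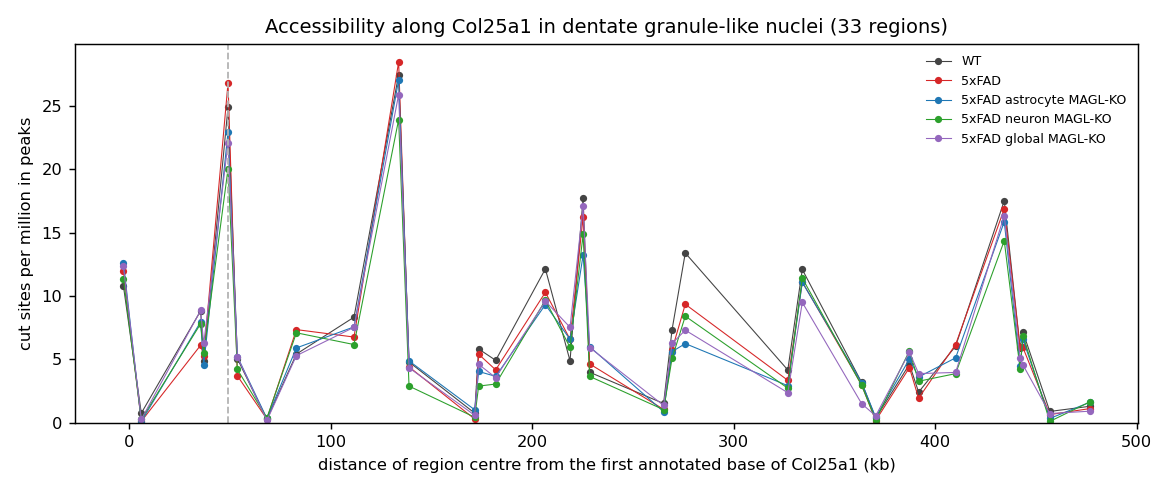
Cut sites per 1000000 in peaks (y axis) in dentate granule-like nuclei for the 33 regions listed in all 5 libraries, against the distance of each region's centre from the first annotated base of Col25a1 (kb); lines join the points of a library and the dashed line marks the promoter region. At the dashed line WT is at 24.9 and 5xFAD at 26.8, and the 5 profiles run close together along the gene.

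Both genes were seen in the same nucleus in 9.55%, 4.50%, 6.94%, 10.8% and 8.81% of excitatory nuclei. Among nuclei with Dcn, 74.7%, 73.1%, 60.6%, 67.4% and 62.8% also had Col25a1, beside 72.3%, 58.7%, 51.5%, 58.7% and 55.4% of all excitatory nuclei. Neither share was thinned to equal depth. In subiculum-like nuclei 20.0%, 24.1%, 17.2%, 20.9% and 20.9% of the nuclei with Dcn had Col25a1, on 7 to 14 nuclei with both, beside 12.7%, 10.2%, 13.1%, 11.9% and 10.5% of all of them. These pool the clusters of that name, which has the limit given above. Over 31 excitatory clusters with at least 50 nuclei the levels of the 2 genes had a Pearson r of 0.11, as a description over clusters that share libraries and depth. The genes most like Dcn over these clusters, of 12122, were Amz1 (r 0.87), Nnat (0.81), Psmb2 (0.79), Acp7 (0.78) and Crnde (0.76). Nnat, the imprinted gene of the small membrane protein neuronatin, had 92.4, 63.0, 86.6, 135 and 102 CPM in excitatory nuclei, also lowest in 5xFAD, whereas Psmb2, a proteasome subunit, had 70.4 and 74.7 CPM in WT and 5xFAD. Those most like Col25a1 were Tbc1d8b and Dars (0.86 each), Caprin1 and Dapk1 (0.85 each) and Vav3 (0.84). Of these, Tbc1d8b had a ratio of 5xFAD to WT of -0.27 and the other 4 were between -0.03 and 0.10.

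The other small leucine-rich proteoglycans were scarce in excitatory nuclei. Of 15 listed, 8 had at least 100 UMIs over WT and 5xFAD, and these had a median log2 ratio of -0.22 beside -0.01 for all genes. All 8 were lower in 5xFAD, 2 of them past 1.5-fold, where 1.51% of all genes were. Epyc (epiphycan) was at 1.59, 0.788, 2.24, 1.4999 and 1.22 CPM (ratio -1.01 [-1.45, -0.58]) and Omd (osteomodulin) at 1.20, 0.740, 1.44, 1.36 and 0.886 CPM (ratio -0.69 [-1.17, -0.23]). Ecm2 was at 7.15 and 5.65 CPM in WT and 5xFAD. Against 5xFAD, 3 of 7 were at least 1.5-fold higher in astrocyte MAGL-KO, 3 of 7 in neuron MAGL-KO and 2 of 8 in global MAGL-KO, where 1 was at least 1.5-fold lower. Of all genes 17.7%, 16.4% and 3.73% were at least 1.5-fold higher.

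Of the 15 genes listed as partners and receptors of decorin, 11 were counted well enough, with a median of -0.04. The ligand gene Tgfb3 was at 2.17, 1.29, 2.24, 3.01 and 2.19 CPM (ratio -0.75 [-1.10, -0.40]), and Egfr, a receptor that decorin binds, at 3.30, 1.83, 2.95, 1.73 and 1.85 CPM (ratio -0.85 [-1.14, -0.57]). Tgfb3 was lowest in 5xFAD, with astrocyte and global MAGL-KO close to WT, and Egfr was lowest in neuron MAGL-KO. The other 9 were within 1.5-fold, and 1.51% of all genes were at least 1.5-fold lower. Of the 11, 4, 4 and 3 were at least 1.5-fold higher in astrocyte, neuron and global MAGL-KO than in 5xFAD, where 17.7%, 16.4% and 3.73% of all genes were. Tgfbr2, the type II receptor of transforming growth factor beta, was level between WT and 5xFAD (1.95 and 2.19 CPM) and at 4.92, 7.40 and 4.89 CPM in the libraries labelled MAGL-KO. Lrp1, an endocytic receptor for decorin, was at 66.6 and 66.9 CPM in WT and 5xFAD.

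Among the genes related to collagen XXV, none of the 5 partners and processing genes was past 1.5-fold between 5xFAD and WT. Furin, the protease that sheds collagen XXV, stood at 0.03, the tyrosine phosphatases Ptprs and Ptprd at -0.02 and 0.16, and Ptprf at -0.11. App, the gene of the amyloid precursor protein, stood at 0.11, and the part of the transgene in its counts was not tested. Of the other membrane-spanning collagens and like proteins, 6 of 10 were counted well enough and none was past 1.5-fold. Col23a1 was at -0.32 and Col13a1 at -0.56 on 62 and 100 UMIs. Of all 43 other collagens, these included, 24 were counted well enough, with a median of -0.05. Of these 18 were lower and 6 higher in 5xFAD, 1 each past 1.5-fold, where 1.51% and 1.07% of all genes were. The lower one was Col6a1, a chain of collagen VI, at -0.89 on 309 and 630 UMIs and then at 2.01, 1.98 and 1.86 in the MAGL-KO libraries over 5xFAD. The higher one was Col24a1 at 1.43 on 253 and 103 UMIs. Of 12 genes of the neuronal matrix, 11 had a median of -0.01, and the 1 past 1.5-fold was Tnc, at 3.46 on 150 and 15 UMIs. Tnr, Ncan and Vcan lay between -0.08 and 0.02. In astrocyte, neuron and global MAGL-KO over 5xFAD, 8 of 25, 5 of 26 and 6 of 28 other collagens were at least 1.5-fold higher. Of all genes 17.7%, 16.4% and 3.73% were. At least 1.5-fold lower were 1, 3 and 2 of these collagens, and 1.07%, 1.46% and 1.26% of all genes. Between WT and 5xFAD most of the matrix genes counted were within 1.5-fold. All 8 counted small leucine-rich proteoglycans and 18 of the 24 collagens were lower in 5xFAD by any amount. The median collagen stood at -0.05, near the median of all genes at -0.01. The share of all genes lower by any amount was not taken, so these counts are a description.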

How the data were processed

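The unit of the deposited values is the count: UMIs per gene and transposase cut sites per peak, per nucleus, made by the authors with Cell Ranger ARC 2.0.0 on mm10, per the file headers and the submitters' processing notes. The aligner and annotation are not given in the sources used here. Other deposited columns (feature positions and barcodes) carry no measurement. Dcn, Col25a1 and the lists were chosen with earlier results of these data known. A nucleus needed 500 genes or more and no more than 5% of UMIs from mitochondria, and the highest Scrublet scores were removed at 0.8% per 1000 nuclei. Nuclei were clustered with scanpy 1.11.5 and leidenalg 0.10.2 (2000 variable genes, 15 neighbours, resolution 1; 40 components for all nuclei, 30 within classes), leaving out Dcn, Col25a1, Thy1, App, Xist, Tsix, Y-linked genes and a gene not reported here. Clusters were named from markers when at least 3 were raised. Clusters with genes of both sexes in at least 75% of nuclei stayed unnamed, such as e10 and e11 (5.89% to 8.77% of excitatory nuclei).

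CPM is the summed UMIs of a gene over those of all genes in the same nuclei, and log2 ratios use no pseudocount. Intervals are exact Poisson (sums), Clopper-Pearson (shares) and conditional binomial (ratios), at 95%, and cover counting error only. Ratios were checked on simulated counts. Each share held equal is the mean over the 5 libraries of a subtype's share of excitatory UMIs. The genes named are both members, all detected genes of the lists, and the 5 genes per member with the highest Pearson r of log2(CPM + 5) over clusters with at least 50 nuclei. Other genes lead a named cluster. The alternatives were no doublet removal, stricter filters, size factors, a pseudocount, mean over nuclei, thinning and other clusterings. Further ones were subtype by score, Xist-only or Y-linked-only nuclei, and other peak sets.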

Additional observations from a re-analysis of the deposited data

Results flagged for a closer look

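Between WT and 5xFAD the log2 ratio of Col25a1 was -0.66 in excitatory and 0.20 in inhibitory nuclei, opposite in sign, though -0.05 among inhibitory nuclei of at most 30000 UMIs. The value of 0.20 rests in part on clusters with genes of both sexes in most nuclei. Within the CA3-like nuclei the Col25a1 ratio was -1.11 in e7 and 0.64 in e23. The ratio of Dcn was -0.35 in the CA1-like cluster e12 and 1.02 in the unnamed cluster e16, the latter on 47 and 18 UMIs. With 1 library per group none of these differences was tested.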

How the results depend on the processing

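No paired analysis was possible because a single library stands for every genotype, with no replicate numbers to pair. The direction of Dcn and Col25a1 between 5xFAD and WT in excitatory nuclei and that of Dcn in the MAGL-KO libraries over 5xFAD stayed the same in all 14 alternatives. These alternatives reuse the 5xFAD library by which the genes were picked, so the stable direction is a description. The Dcn ratio of 5xFAD to WT was -1.25 with stricter filters (-1.27 with subtype shares held equal), -0.74 with a pseudocount of 5 CPM (-0.76), -1.23 after thinning (-1.32), -2.76 in Xist-only nuclei (-2.65) and -0.55 in Y-linked-only nuclei (-0.62). It was -0.62 with cluster shares. The alternatives chosen after seeing the data were clusters of at least 20 nuclei (-0.88), nuclei of at most 30000 UMIs (-1.27, and -1.38 with subtype shares), named clusters alone and leaving out e4. For Dcn in astrocyte, neuron and global MAGL-KO over 5xFAD, size factors gave 1.28 and 1.46 for the first 2, the pseudocount 1.12, 1.24 and 1.21, and Xist-only nuclei 2.28, 2.71 and 1.99. Thinning gave 1.89 for neuron and 1.92 for global MAGL-KO, and for global MAGL-KO Y-linked-only nuclei gave 1.49 and named clusters alone 1.503. Over the pooled subiculum-like clusters the ratio of astrocyte MAGL-KO to 5xFAD turned to -0.61 among Y-linked-only nuclei. That name has the limit given above, and the cause was not tested.

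For Col25a1, 5xFAD over WT was -0.71 as a mean over nuclei, -0.69 after thinning (-0.56 with subtype shares held equal), -1.23 in Xist-only (-1.004) and -0.42 in Y-linked-only nuclei (-0.28), and -0.73 at most 30000 UMIs. With shares held equal it was -0.65 with subtypes from the highest score, -0.46 with cluster shares and -0.53 in named clusters alone. In astrocyte, neuron and global MAGL-KO over 5xFAD it was -0.51, -0.30 and -0.27 with size factors, -0.34, -0.21 and -0.29 as a mean over nuclei, -0.35, -0.23 and -0.30 after thinning, -0.44, -0.34 and -0.30 in Y-linked-only nuclei, -0.41, -0.24 and -0.35 at most 30000 UMIs and -0.32, -0.16 and -0.34 in named clusters alone. Xist-only nuclei gave 0.069 for astrocyte and -0.15 for neuron MAGL-KO, so the direction of the astrocyte MAGL-KO ratio rests on the nuclei used. Without e4 the neuron MAGL-KO ratio was -0.016. In the regions listed in all libraries the accessibility ratio of 5xFAD to WT was -0.17 for Dcn, -0.13 for Col25a1 in excitatory and -0.086 in granule-like nuclei. With genes of at least 10 UMIs, 6.92% of all genes were at least 1.5-fold lower and 4.64% higher in 5xFAD over WT. Depth limits the values of clusters of few nuclei, such as e22 and e18.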
